A study of Homo sapiens with 36 samples.

Results

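The dual-specificity MAP kinase phosphatases are enzymes that remove phosphate from both the threonine and the tyrosine of the activation loop of a MAP kinase and thereby switch it off. The 10 members were taken by their gene symbols and Ensembl identifiers (DUSP1, DUSP2, DUSP4, DUSP5, DUSP6, DUSP7, DUSP8, DUSP9, DUSP10 and DUSP16), out of 61587 genes in the count table, and their mRNA was followed through 36 RNA-seq libraries. The libraries came from HEK293T, an established human embryonic kidney line, and all 4 cell lines compared carried a knockout of TXNL1 (TXNL1 KO), which was made in cells sorted singly and grown out. Whether all 4 lines came from the same clone is not given in the sources used here. TXNL1 is a thioredoxin-like protein that binds the proteasome. The KO cells were stably transduced by lentivirus, from a CMV promoter, with vector alone, with TXNL1-WT, with TXNL1-DR-RD, whose proteasome contacts are mutated, or with TXNL1-SxxS, whose thioredoxin cysteines are replaced by serines. Each line was exposed to DMSO, to H2O2 (600 µM, 6 h) or to arsenite (100 µM, 6 h), with 3 libraries in each of the 12 groups. The study asked what the loss or mutation of TXNL1 does to the response to these oxidants. The paper states that cells in 6-well plates were treated in triplicate. Whether the triplicates came from separate experiments is not given. The p-values thus measure the spread between these samples, which may not hold the spread between experiments.

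MAP kinases carry signals from growth factors and stress to the nucleus in 3 main branches, ERK, JNK and p38, and each is turned on by a kinase cascade. Many of the phosphatases are themselves transcribed in response to the kinases they switch off, so that they form a negative feedback. They are grouped by place and substrate. DUSP1, DUSP2, DUSP4 and DUSP5 are nuclear and are known as inducible genes, DUSP6, DUSP7 and DUSP9 are cytoplasmic and act mainly on ERK, and DUSP8, DUSP10 and DUSP16 act mainly on JNK and p38.

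Totals ranged from 42072410 to 174119002 counts per library (median 66016833). All 10 members passed the filter on low counts, which kept 22486 genes, although DUSP6 had as few as 10 counts in a library. Levels are given as CPM (counts scaled to library size, corrected for library composition) and, where genes are set against each other, as RPKM (CPM per kilobase of exon). VIM was at 445 to 670 CPM and CDH2 at 31.1 to 69.1 CPM in all libraries, whereas the other HEK293T markers checked were low, with LHX1 and NEFL at medians of 1.46 and 1.91 CPM and PAX2 and NEFM below 1 CPM. Of the markers of other cell types, PTPRC, ALB, PECAM1 and HBB did not exceed 0.3 CPM, while COL1A1 had a median of 13.8 CPM. With DMSO, the 3 vector libraries held 28.6 to 31.7 CPM of TXNL1 mRNA, and the 9 libraries with a TXNL1 transgene 51.7 to 66.2 CPM. A pair of WT libraries stood apart from their replicates. The distance of a library from its replicates, taken as the SD of log2 CPM about the median of its group over 15674 genes, was 0.546 for WT arsenite replicate 1 and 0.624 for WT H2O2 replicate 2. It did not exceed 0.193 in any other library. Results that rest on this pair are given with and without it.

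The 5 members that moved most with arsenite, 3 upward and 2 downward, are shown by the 250 bases of their promoters just upstream of the start site, 5′ to 3′ on the strand of the gene, from RefSeq (GRCh38.p14). The capitals mark TGACGTCA, the palindromic cAMP response element that CREB and ATF factors can bind.
DUSP8 promoter, chr11:1572272-1572521, minus strand: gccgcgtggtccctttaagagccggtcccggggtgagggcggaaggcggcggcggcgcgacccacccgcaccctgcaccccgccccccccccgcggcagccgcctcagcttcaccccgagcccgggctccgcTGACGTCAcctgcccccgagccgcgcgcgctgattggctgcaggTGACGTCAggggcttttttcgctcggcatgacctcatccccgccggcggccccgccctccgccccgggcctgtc
DUSP1 promoter, chr5:172771196-172771445, minus strand: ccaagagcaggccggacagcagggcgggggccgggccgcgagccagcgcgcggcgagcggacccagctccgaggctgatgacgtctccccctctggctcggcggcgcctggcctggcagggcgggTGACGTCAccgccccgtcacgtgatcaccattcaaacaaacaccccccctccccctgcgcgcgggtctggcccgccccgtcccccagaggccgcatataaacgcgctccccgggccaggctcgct
DUSP16 promoter, chr12:12562864-12563113, minus strand: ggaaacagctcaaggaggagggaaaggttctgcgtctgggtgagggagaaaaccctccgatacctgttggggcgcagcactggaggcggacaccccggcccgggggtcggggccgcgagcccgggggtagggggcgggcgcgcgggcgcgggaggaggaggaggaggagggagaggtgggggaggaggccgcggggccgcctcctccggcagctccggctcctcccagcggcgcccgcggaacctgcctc
DUSP7 promoter, chr3:52056572-52056821, minus strand: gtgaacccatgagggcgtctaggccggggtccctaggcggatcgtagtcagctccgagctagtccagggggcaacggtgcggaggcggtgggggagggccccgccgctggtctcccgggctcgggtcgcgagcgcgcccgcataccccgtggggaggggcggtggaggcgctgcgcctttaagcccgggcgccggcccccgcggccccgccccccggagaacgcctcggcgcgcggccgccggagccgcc
DUSP2 promoter, chr2:96145441-96145690, minus strand: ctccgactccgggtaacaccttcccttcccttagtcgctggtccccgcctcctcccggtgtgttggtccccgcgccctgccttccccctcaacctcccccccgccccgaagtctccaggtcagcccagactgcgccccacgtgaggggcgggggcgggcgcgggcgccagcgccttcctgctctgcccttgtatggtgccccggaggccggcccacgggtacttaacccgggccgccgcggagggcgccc
DUSP8 held this element at 2 places, starting 118 and 74 bases before the start site, and DUSP1 held it once, 125 bases before it. These letters were found in 1.85% of the 35116 RefSeq promoter windows of 300 bases (250 before and 50 after the start site), and in no other window of the 8 members with an entry, DUSP16, DUSP7 and DUSP2 included. The other 5 motifs were searched on both strands, and the matches of different motifs did not overlap. TATAAA (the TATA box, in 11.5% of all windows) was found only in DUSP1, 30 bases before the start site. GGGCGG (the GC box, 45% of all windows) was found in all members with an entry other than DUSP6. TGANTCA (the AP-1 element, 7.71%), GAANNTTC (the core of the heat shock element, 6.77%) and the CArG box (1.29%) were found in none of them. A match is a run of letters and not a measured binding site.

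Before treatment the most abundant members per length were DUSP9 and DUSP1. In the 12 DMSO libraries DUSP9 averaged 9.64 ± 0.83 RPKM (SD, n = 12) and DUSP1 averaged 9.15 ± 0.68, and their ranges overlapped. DUSP7 at 7.43 ± 0.38 and DUSP2 at 6.36 ± 0.72 RPKM followed and overlapped each other, but not DUSP1. DUSP16 stood alone below them at 4.16 ± 0.23 RPKM. The other 5 were all below 1 RPKM, with DUSP5 (0.824) and DUSP8 (0.714) overlapping, DUSP10 (0.408) and DUSP4 (0.368) overlapping, and DUSP6, a widely studied ERK phosphatase, the lowest at 0.0883 ± 0.0249.

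After arsenite the order was different. DUSP1 averaged 50.7 ± 3.6 RPKM, DUSP16 averaged 19.8 ± 2.9, and DUSP8 at 9.95 ± 0.79 stood level with DUSP9 at 9.69 ± 0.60. The ranges of the last pair overlapped, whereas those of DUSP1, DUSP16 and DUSP8 did not. DUSP5 (1.75), DUSP2 (1.48) and DUSP7 (1.43 RPKM) formed an overlapping group, followed by DUSP10 (0.796), DUSP4 (0.511) and DUSP6 (0.136). Summed over the 10 transcripts, the level per library was 36.5 to 43.0 RPKM with DMSO, 38.03 to 49.2 with H2O2 and 93.2 to 103.1 with arsenite. The cytoplasmic ERK-directed members held 43.8% ± 1.8 of this sum with DMSO and 11.7% ± 0.76 with arsenite (SD, n = 12). The JNK and p38-directed members held 13.5% ± 1.0 and 31.8% ± 3.6, and DUSP1 alone 23.4% ± 1.3 and 52.6% ± 2.9. These sums and shares are descriptions and were not tested. In bulk RNA, fewer cells that express a gene and less of its RNA per cell cannot be told apart.

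**Figure D1:**
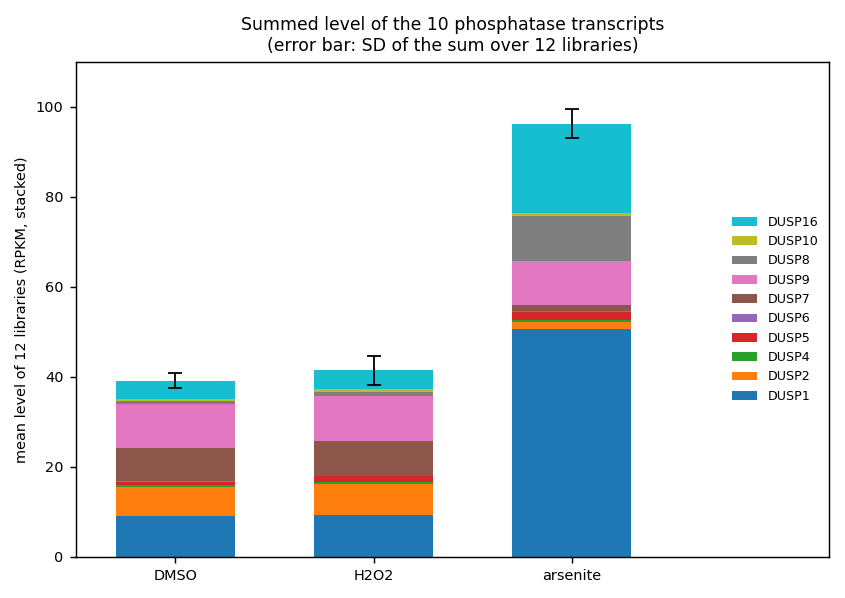
Mean RPKM of the 10 phosphatase transcripts stacked for DMSO, H2O2 and arsenite (12 libraries each, from 4 cell lines), with the SD of the sum as error bar. The sum averaged 39.1 with DMSO, 41.4 with H2O2 and 96.3 RPKM with arsenite, and the blocks that grew most are DUSP1, DUSP16 and DUSP8.

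With arsenite, averaged over the 4 cell lines, 7 of the 10 members rose, 2 fell and 1 did not pass the test (edgeR's quasi-likelihood test, Benjamini-Hochberg adjusted p under 0.05). Arsenite moved most of the transcriptome, and 37.4% of all genes tested were called higher and 31.5% lower, so the count of members called is read against that background. The members' median log2 fold change was 0.78, against 0.06 over all genes tested. The members ranged from -2.38 to 3.80.

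DUSP8 showed the largest rise. It lay between 2.70 and 4.13 CPM in the 12 DMSO libraries (median 3.54) and between 41.3 and 55.0 CPM in the 12 arsenite libraries (median 49.0). Every arsenite library was thus far above every DMSO library, and the fitted change was 13.9-fold (log2 fold change 3.80 ± 0.06 SE, adjusted p = 4.65e-29). DUSP16, a phosphatase directed mainly at JNK, rose from 27.0 to 32.3 CPM with DMSO (median 29.7) to 86.1 to 166.8 with arsenite (median 144.4). This was a 4.74-fold rise (log2 fold change 2.24 ± 0.06, adjusted p = 7.59e-23). DUSP10, which acts on JNK and p38, was scarcer and rose 1.94-fold, from 0.968 to 1.47 CPM to 1.76 to 2.91 CPM (adjusted p = 5.84e-12). All 3 members of the JNK and p38-directed group were thus called higher, as were 37.4% of all genes. In each of them the arsenite and DMSO libraries did not overlap, which also held for DUSP1, DUSP5, DUSP2 and DUSP7. The share of all genes without such overlap was not computed.

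Of the inducible nuclear members, 3 rose and 1 fell. DUSP1, the founding member and the product of an immediate early gene, lay between 16.6 and 20.8 CPM with DMSO (median 18.1) and between 94.2 and 115.1 CPM with arsenite (median 98.5). The change was 5.53-fold (log2 fold change 2.47 ± 0.04, adjusted p = 8.02e-29). DUSP5, an ERK-specific nuclear phosphatase, rose 2.13-fold, from 1.73 to 2.44 CPM to 3.55 to 5.18 CPM (adjusted p = 2.24e-14). DUSP4, a close relative of DUSP1, changed less. Its DMSO libraries lay between 2.08 and 3.47 CPM and its arsenite libraries between 3.22 and 4.85 CPM, so that 8 of 12 arsenite libraries exceeded all DMSO libraries (1.40-fold, adjusted p = 3.59e-06). DUSP2, first known from activated lymphocytes, moved the other way. It fell from 10.7 to 15.1 CPM with DMSO (median 12.04) to 2.48 to 3.67 CPM with arsenite (median 2.72), with no overlap (log2 fold change -2.11 ± 0.07, adjusted p = 2.51e-21).

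The 3 cytoplasmic ERK-directed members went 3 different ways. DUSP7 fell from 37.8 to 45.6 CPM with DMSO (median 42.5) to 7.10 to 9.20 CPM with arsenite (median 8.05). At a log2 fold change of -2.38 ± 0.03 this was the largest fall among the members, to 0.192 of the DMSO level (adjusted p = 1.65e-30). DUSP9 stayed in the same range, at 23.2 to 30.2 CPM with DMSO and 24.5 to 31.0 CPM with arsenite. Its log2 fold change was 0.01, with a 95% confidence interval from -0.09 to 0.11 (adjusted p = 0.897), and its sign turned with the scaling of the libraries. DUSP6 was near the limit of detection, at 10 to 32 counts per DMSO library and 14 to 69 per arsenite library. It was called 1.53-fold higher (log2 fold change 0.61 ± 0.21, adjusted p = 0.0103), but its ranges of 0.184 to 0.527 and 0.306 to 0.798 CPM overlapped, and within the lines it did not pass. SxxS cells came nearest (log2 fold change 0.93, adjusted p = 0.0594), and there it passed in 4 of 15 alternatives, among them the fit without both outlying WT libraries (0.91, adjusted p = 0.0313). In SxxS cells that fit called 12822 of all genes, against 9803 with all libraries. In the annotation 28.6% of the exon bases of DUSP6 are shared with an antisense gene (ENSG00000274021). The use of strand in counting is not stated, so reads of the pair could not be told apart. The other 9 members share no exon base with another gene.

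**Figure D2:**
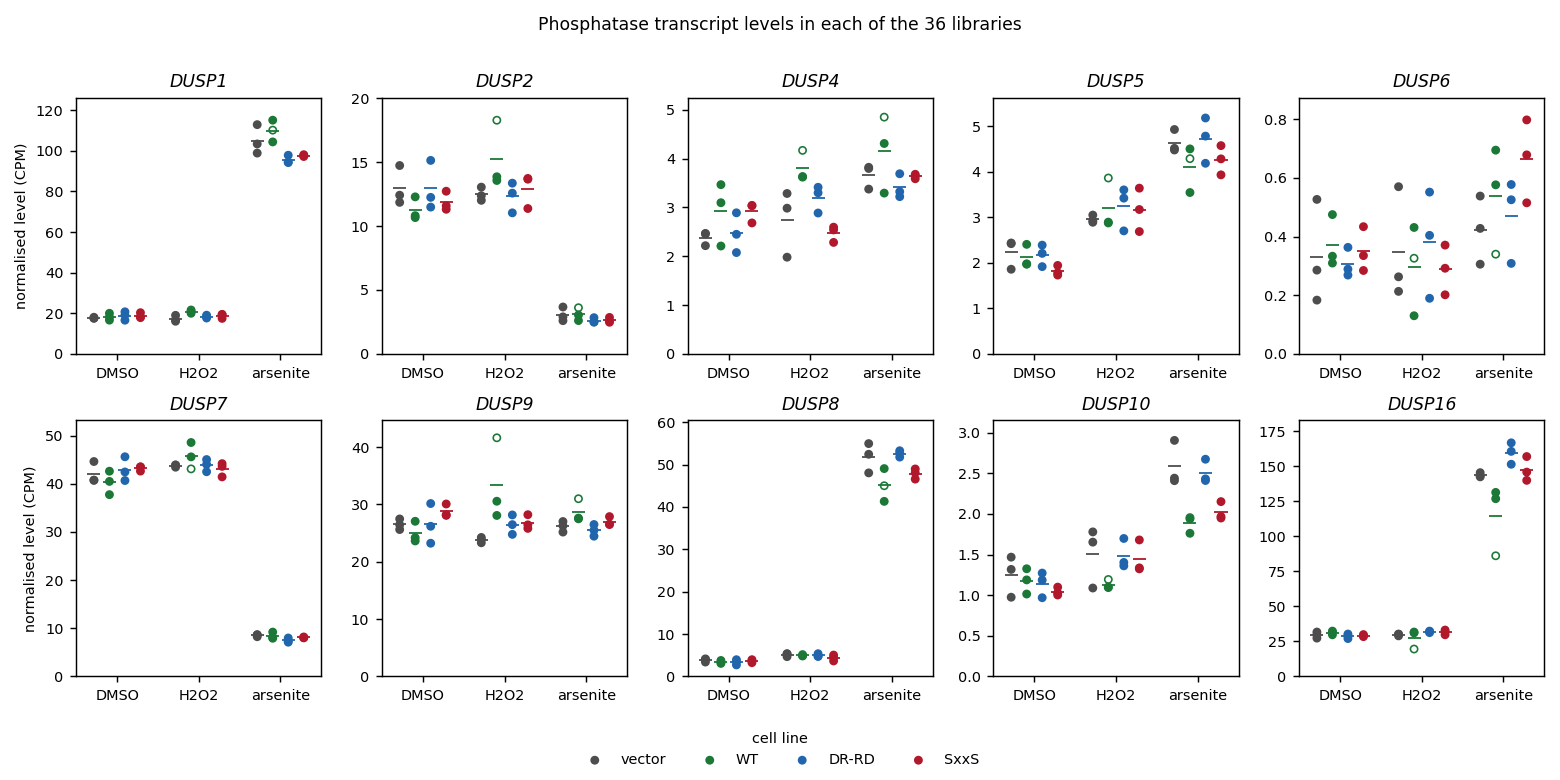
CPM of each phosphatase in all 36 libraries, by treatment (x axis) and cell line (colour), with the mean of each group of 3 as a line and both outlying WT libraries as open circles. Each y axis starts at 0 and has its own range. DUSP1, DUSP8 and DUSP16 stand higher with arsenite, DUSP2 and DUSP7 lower, and DUSP9 at the same level apart from WT with H2O2.

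Most members passed the arsenite test within each of the 4 cell lines. Of the 10 members, 8 were called in vector cells (43.4% of all genes), 8 in WT (53.6%), 8 in DR-RD (44.0%) and 7 in SxxS cells (43.6%). DUSP1, DUSP5, DUSP8, DUSP10 and DUSP16 were higher and DUSP2 and DUSP7 lower in every line. DUSP4 was called in vector, WT and DR-RD cells but not in SxxS cells (log2 fold change 0.32 ± 0.15, adjusted p = 0.0994). There it passed only in a fit to the SxxS groups alone (adjusted p = 0.0202), which called 13276 of all genes, against 9803 in the main fit. The call of DUSP4 in WT cells was lost without the outlying pair (adjusted p = 0.068), without WT arsenite replicate 1 (0.0755), without WT DMSO replicate 3 (0.0807) and in a fit to the WT groups alone (0.150). Its call in DR-RD cells was lost without DR-RD DMSO replicate 1 (adjusted p = 0.110) or DR-RD arsenite replicate 3 (0.0681). The log2 fold change of DUSP8 was 3.76 in vector, 3.74 in WT, 3.98 in DR-RD and 3.73 in SxxS cells. That of DUSP7 was -2.30, -2.27, -2.52 and -2.42 in the same order.

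A test of whether the arsenite effect differed among the lines called none of the members and 0% of all genes (edgeR). At an unadjusted p under 0.05 it held 2 members, DUSP16 (adjusted p = 0.70) and DUSP7 (adjusted p = 0.742), and 1432 of all genes, and DESeq2 called no member and 18 genes. DUSP16 is the member where the outlying WT library mattered. Its arsenite libraries were at 142.5, 143.4 and 145.5 CPM in vector, 86.1, 131.4 and 126.9 in WT, 166.8, 151.5 and 160.7 in DR-RD and 157.0, 140.0 and 145.9 in SxxS cells. All WT libraries were below those of the other lines, and the lowest was the outlying replicate 1. Without the outlying pair the WT log2 fold change went from 1.88 ± 0.13 to 2.02 ± 0.05, against 2.27 in vector, 2.46 in DR-RD and 2.33 in SxxS cells. The test of the difference then passed for DUSP16 (adjusted p = 0.0161) and for 46 of all genes, with no other member among them. For DUSP16 the test of any difference among the lines thus passed only with that pair left out, and in no other alternative run. It does not say which line differed, and the smaller rise in WT cells was not tested by itself.

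**Figure D3:**
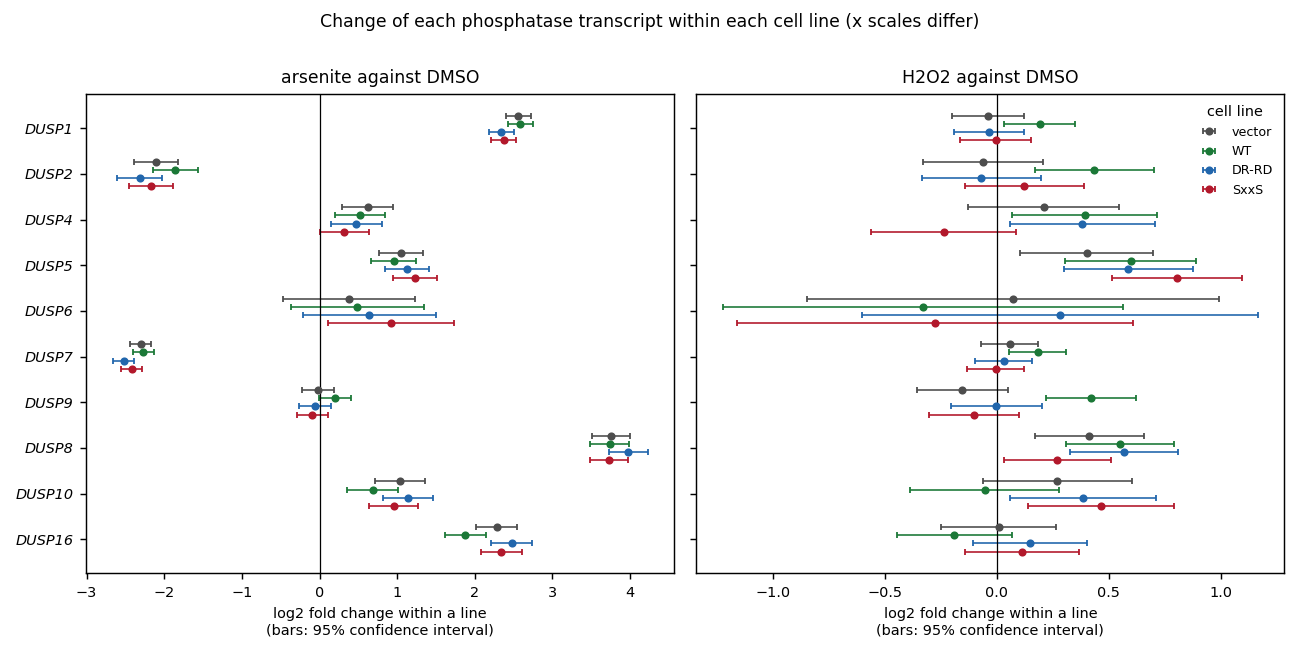
log2 fold change of each phosphatase within each cell line (points; bars are 95% confidence intervals; 3 libraries against 3), for arsenite (left) and H2O2 (right), on different x scales. With arsenite DUSP7 is below -2 and DUSP1 and DUSP8 above 2 in all 4 lines, DUSP16 is below 2 in WT cells alone (1.88), and with H2O2 DUSP9 in WT cells (0.42) stands to the right of the other lines.

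With H2O2 the changes were small. Averaged over the lines, 3 members were called higher, against 6.78% of all genes, and all 3 were also higher with arsenite. No member was called lower (5.30% of all genes). At an unadjusted p under 0.05 were 5 members, all of them above 0, and 5390 of all genes. DUSP5 lay between 2.69 and 3.86 CPM in the 12 H2O2 libraries, above all 12 DMSO libraries (log2 fold change 0.60 ± 0.07, adjusted p = 5.9e-07). DUSP8 lay between 3.64 and 5.35 CPM, and 11 of 12 libraries were above all DMSO libraries (0.45 ± 0.06, adjusted p = 2.64e-06). DUSP10 rose by less, with a log2 fold change of 0.27 ± 0.08 and ranges that overlapped (adjusted p = 0.0258), and it lost its call in 9 alternatives. DUSP1 and DUSP16, with large changes under arsenite, had log2 fold changes of 0.03 (95% confidence interval -0.05 to 0.11) and 0.02 (-0.11 to 0.15). DUSP7 was at 0.07 and DUSP2 at 0.11 on the same scale, neither past the test, although DUSP7 passed without both outlying WT libraries (0.07, adjusted p = 0.0358). That fit called 6430 of all genes in either direction, against 2716 with all libraries. Set directly against H2O2, arsenite gave higher values for 7 members (37.3% of all genes) and lower values for 2 (31.3%), and DUSP9 did not pass (log2 fold change -0.03, 95% confidence interval -0.13 to 0.07). The doses of the agents differ, so these values stand for 1 dose and time of each.

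**Figure D4:**
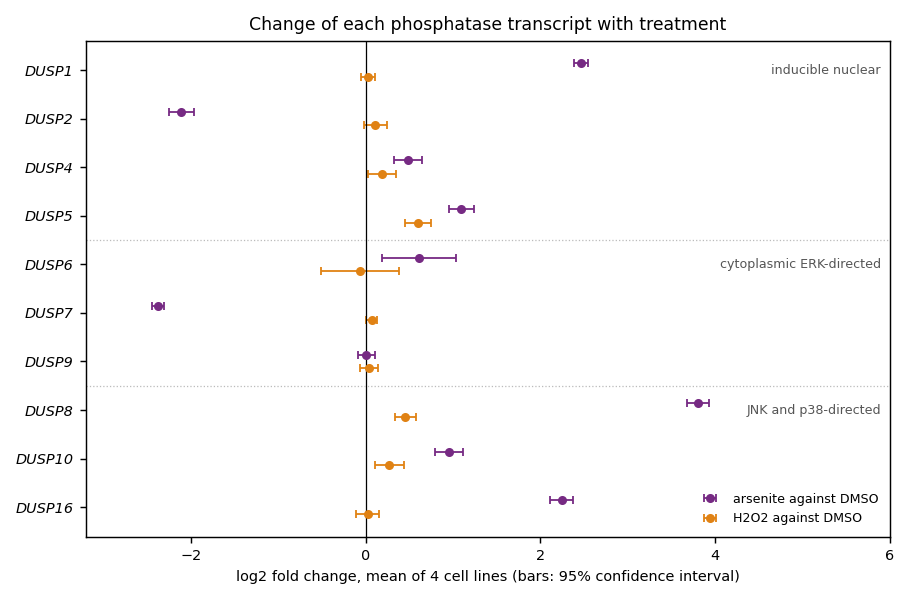
log2 fold change of each phosphatase averaged over the 4 cell lines (points; bars are 95% confidence intervals; 12 libraries against 12), with arsenite in purple and H2O2 in orange. Arsenite values run from -2.38 (DUSP7) to 3.80 (DUSP8), and H2O2 values from -0.06 (DUSP6) to 0.60 (DUSP5).

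Within the lines, H2O2 called no member higher in vector cells (0.712% of all genes), 4 in WT (5.80%), 2 in DR-RD (0.503%) and 1 in SxxS cells (0.409%). In vector cells DUSP5 and DUSP8 were at an unadjusted p under 0.05, as were 2542 of all genes. DUSP8 passed there with DESeq2, without the outlying WT pair and in a fit to the vector groups alone. These called 538, 2219 and 2808 of all genes in either direction, against 303 in the main fit. DUSP5 and DUSP8 were the calls in DR-RD cells, both lost without DR-RD DMSO replicate 1 (adjusted p = 0.189 and 0.114) or DR-RD H2O2 replicate 1 (0.201 and 0.0783), and DUSP5 the call in SxxS cells. In WT cells the calls were DUSP5, DUSP8, DUSP2 and DUSP9, and they rested in part on the outlying replicate 2. DUSP2 lay at 13.6, 18.3 and 13.9 CPM in the WT H2O2 libraries against 10.8, 10.7 and 12.3 with DMSO. DUSP9 lay at 30.6, 41.6 and 28.1 against 27.1, 23.6 and 24.2 CPM. In both genes the middle value of each H2O2 triplet, replicate 2, was the highest of all 36 libraries. DUSP16 had its lowest value of all 36 libraries, 19.5 CPM, in the same library, against 31.7 and 31.1 CPM in its replicates. Without the outlying pair the WT log2 fold change of DUSP9 went from 0.42 to 0.22 (adjusted p = 0.047), that of DUSP2 from 0.44 to 0.28 (adjusted p = 0.122) and that of DUSP5 from 0.60 to 0.43 (adjusted p = 0.0621), while DUSP8 kept its call (0.52, adjusted p = 0.00751). DUSP7 gained a call there, with its log2 fold change going from 0.18 (adjusted p = 0.0636) to 0.22 (adjusted p = 0.0113). In WT cells that fit called 2020 of all genes in either direction, against 1813 with all libraries. A fit to the WT groups alone called no member, and 1 of all genes.

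The test of whether the H2O2 effect differed among the lines called none of the members, against 0.685% of all genes. At an unadjusted p under 0.05 it held 3 members, DUSP9 (adjusted p = 0.0981), DUSP4 and DUSP2, and 1970 of all genes. DESeq2 called DUSP9 alone of the members, and 320 of all genes. In untreated cells no member differed from vector in WT (0.196% of all genes called), DR-RD (0.0267%) or SxxS cells (0.0178%). Across these 3 comparisons a single member, DUSP5 in SxxS cells, was at an unadjusted p under 0.05 (log2 fold change -0.30, 95% confidence interval -0.60 to -0.00141). In SxxS cells 744 of all genes were at such a p. TXNL1 itself differed in all 3 comparisons, by log2 fold changes of 0.83, 1.04 and 0.80.

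The genes of the MAP kinase cascade moved in both directions with arsenite, as did all genes tested, of which 37.4% were called higher and 31.5% lower. The counts below are read against these shares. The list medians of the 4 kinase groups lay between -0.15 and 0.14 on the log2 scale, against 0.06 over all genes. Of 11 MAP kinases, 5 were higher and 5 lower with arsenite. MAPK14, which encodes p38 alpha, fell by 0.36 on the log2 scale and MAPK7, which encodes ERK5, by 0.79, whereas MAPK3, which encodes ERK1, was higher by 0.19 and MAPK12, which encodes p38 gamma, by 0.66. Of 7 MAP kinase kinases, 4 were higher, led by MAP2K6 (0.29), and MAP2K3 was lower (-0.58). Of 21 MAP3 and RAF kinases, 7 were higher and 10 lower. MAP3K5, the oxidant-sensitive kinase ASK1, was the lowest of these at -1.15, followed by TAOK1 at -1.04. Of 11 kinases activated by MAP kinases, 3 were higher and 7 lower, with MKNK2, which phosphorylates eIF4E, at -1.67.

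Of 10 other inhibitors of the ERK pathway, 6 were lower and 3 higher with arsenite, against 31.5% and 37.4% of all genes (median -0.38 on the log2 scale). Among the lower were SPRY1 (-2.19) and SPRY2 (-1.29), which dampen receptor tyrosine kinase signalling, and NF1 (-0.69), a RAS GTPase-activating protein. The 3 that were higher were SPRED3 (1.87), SPRED2 (0.62) and ERRFI1 (0.59). Of 8 genes known to follow ERK output, 3 were higher and 4 lower. ETV5 was higher by 1.72 from a low level (means of 0.30 CPM with DMSO and 1.01 with arsenite). The lower genes were led by SPRY2, which is also counted among the inhibitors, followed by EPHA4 (-0.68) and CCND1 (-0.44). Of 7 other phosphatases that act on MAP kinases, PPM1D (1.57), a stress-induced phosphatase of p38, and PPP2CA (1.03), a catalytic subunit of PP2A, were higher and PPP2CB (-0.40), the other PP2A catalytic subunit, was lower.

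Of 18 genes in a list of immediate early transcription factors, 11 were higher and 7 lower with arsenite, against 37.4% and 31.5% of all genes. Their median log2 fold change was 1.09. The list also holds SRF, ELK1, ELK3 and ELK4, which act upstream of such genes. All of these were called lower (-0.25, -1.05, -0.48 and -0.68), so the 7 lower are not all immediate early genes. EGR1 went from a mean of 2.26 to 853.4 CPM, FOS from 0.725 to 213.5 and ATF3 from 20.7 to 444.9, while MYC went from 186.9 to 27.6 CPM (edgeR log2 fold changes of 8.58, 8.19, 4.42 and -2.76). With H2O2, 9 of the 18 were called higher, against 6.78% of all genes, and the other 9 were not called. The largest changes among those with a mean of at least 1 CPM were in FOS (0.82), FOSL1 (0.67), FOSB (0.54) and JUNB (0.48). MAPK9, which encodes JNK2 (-0.12), MAP2K6 (-0.23) and ARAF (-0.18) were the calls with H2O2 among the MAP kinases, the MAP kinase kinases and the MAP3 and RAF kinases. Of all genes 5.30% were called lower with H2O2.

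**Figure D5:**
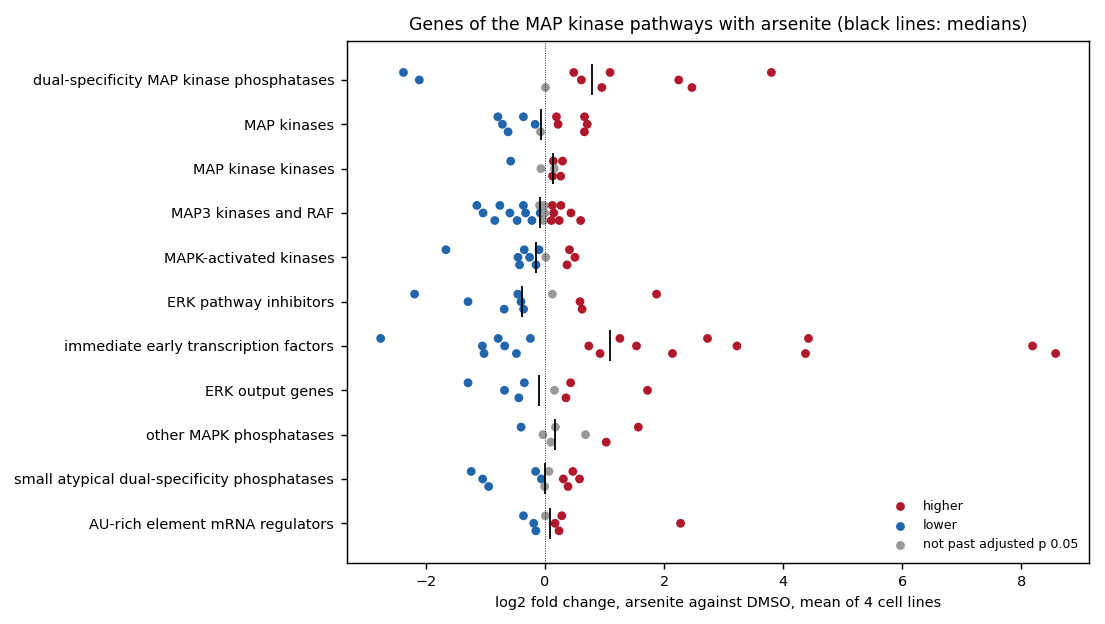
log2 fold change with arsenite, averaged over the 4 cell lines, of each tested gene of the phosphatase family and of 10 further gene lists (rows); colours give the call at an adjusted p of 0.05 and black lines the list medians. The phosphatases spread from -2.38 to 3.80 around a median of 0.78, whereas all 11 MAP kinases lie within 1 log2 unit of 0.

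As a description of shared pattern, log2 CPM was correlated over the 12 group means with that of 15665 other genes with a mean of at least 1 CPM. These means share their treatments, so that high values can arise from the arsenite groups alone, and no p is given. The genes most like DUSP8 were SESN2 (r = 0.9991), SUPT7L (0.999), ATF3 (0.9985), RSRC2 (0.9979) and FOS (0.9978). The most like gene was SNHG12 for DUSP1 (0.999), ZSWIM6 for DUSP16 (0.999), C15orf39 for DUSP7 (0.9993) and CHST10 for DUSP2 (0.9986). For the members that changed least it was lower, with SRRM5 at 0.9563 for DUSP9, ADM at 0.9591 for DUSP4 and DNAJC25 at 0.9615 for DUSP6. DUSP9 and SRRM5 both changed little with arsenite (log2 fold changes of 0.01 and 0.02). The highest group mean of DUSP9 was in WT cells with H2O2 (33.4 CPM), a group that holds an outlying library. The correlations were not run without the outlying pair. MPPED2 (0.9831) was most like DUSP10 and IL15RA (0.9813) most like DUSP5. Nothing about shared function or control follows from these values.

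In the annotation of GRCh38 (GENCODE release 44) all members are protein-coding genes of a single locus each. DUSP8 lies on chr11:1554051-1572271, DUSP1 on chr5:172768096-172771195, DUSP16 on chr12:12473282-12562863, DUSP7 on chr3:52048919-52056571, DUSP2 on chr2:96143169-96145440, DUSP9 on chrX:153642492-153651326, DUSP5 on chr10:110497907-110511533, DUSP6 on chr12:89347235-89352501 and DUSP10 on chr1:221701424-221742089. Each length used for RPKM is the number of exon bases of the gene, from 1929 in DUSP2 to 7273 in DUSP4.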

How the data were processed

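RNA was sequenced as paired-end mRNA libraries on the DNBseq platform, and the authors deposited raw read counts per gene, aligned with qAlign of QuasR. GRCh38 and DESeq2 are named in the submitters' processing notes. The gene model release, the use of strand and whether both mates were counted are not given in the sources used here, and even counts were more frequent than odd ones, so halved counts were run as an alternative. The table's gene lengths gave RPKM. No column was left without a sample (0).

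Counts were filtered as in the study (at least 10 counts summed over the 3 vector DMSO libraries) and fitted over all 36 libraries with edgeR 4.0.16 (R 4.3.3, limma 3.58.1; TMM scaling, 1 mean per group, robust quasi-likelihood test, Benjamini-Hochberg adjustment over 22486 genes, threshold 0.05). DESeq2 1.42.0 was an alternative, and the fit was tested on simulated data. The common biological coefficient of variation was 12.4%. Symbols and exons came from GENCODE release 44, and promoters from RefSeq. Intervals on fold changes are at 95%.

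The members and gene lists were chosen with earlier results of these data known. From each list up to 4 called genes per direction with a mean of at least 1 CPM could be named, by size of the arsenite or H2O2 change. SRF, ELK3 and ELK4 are named beyond this rule, to say what their list holds. A listed kinase and a marker of another cell type are not reported here by name. The 1 most like gene per member (5 for DUSP8) was taken by Pearson correlation. Alternatives changed scaling, filter, test, samples fitted, replicate block, fold threshold and single libraries, and a fit left out both outlying WT libraries. Deviations of same-numbered replicates from their group means correlated from -0.85 to 0.78, with medians of 0.00932, 0.0263 and 0.0128 for numbers 1, 2 and 3. Of 66 pairs per number, 16, 11 and 17 were above 0.1. Whether same-numbered replicates were handled together is not given in the labels.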

Additional observations from a re-analysis of the deposited data

Results flagged for a closer look

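A pair of members moved in opposite directions in different lines, with every treated library on 1 side of every DMSO library of its line. They were picked by this rule after a search over all members, treatments and lines. With so few libraries per group, some separations of this kind can turn up in such a search by sampling alone. How many of all genes meet the same rule was not computed, so the rule by itself does not show a difference among lines. DUSP9 with H2O2 had a log2 fold change of 0.42 in WT cells and -0.15 in vector cells, and the test of the difference among lines gave an adjusted p of 0.0981 (edgeR). With arsenite its values were 0.20 in WT and -0.0940 in SxxS cells (adjusted p of the difference 0.816). DUSP4 with H2O2 had 0.39 in WT and -0.24 in SxxS cells (adjusted p of the difference 0.475). None of these differences passed the test over all genes. The WT values include both libraries that stand apart, and without them they were 0.22 and 0.12 for DUSP9 and 0.32 for DUSP4.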

How the results depend on the processing

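Of 344 alternative counts of members called, over 16 counts, 323 stayed within 1.5 times the reported count. Of 660 alternative log2 fold changes of single members, 632 kept direction and call, 9 lost the call, 2 gained it (DUSP7 with H2O2 without both outlying WT libraries, DUSP4 with H2O2 without vector H2O2 replicate 1) and 17 turned sign. The calls of single members with arsenite averaged over lines held in all alternatives run on single members. With a further condition of a change of 1 or more on the log2 scale, 5 members remained called with arsenite in WT cells and 5 for arsenite against H2O2, and 0 with H2O2 averaged over lines or in WT, DR-RD or SxxS cells. DESeq2 called 1 member with H2O2 in vector cells (DUSP8) and 1 for the line by H2O2 test (DUSP9). With no filter on low counts 1 member was called with H2O2 in DR-RD cells. Fits to only the groups compared called 1 with H2O2 in vector, 0 in WT and 0 in DR-RD cells. Without both outlying WT libraries 1 member was called with H2O2 in vector cells and 1 for the line by arsenite test. With single libraries left out, the H2O2 counts ran from 1 to 4 in WT (1 without WT DMSO replicate 2 or WT H2O2 replicate 2), from 0 to 2 in DR-RD (0 without DR-RD DMSO or H2O2 replicate 1, 1 without DR-RD DMSO or H2O2 replicate 2) and from 0 to 1 for the line by H2O2 test (1 without WT H2O2 replicate 3). The log2 fold change of DUSP9 with arsenite turned to -0.0144 with DESeq2 size factors, -0.0142 with the DESeq2 test, -0.0359 with total counts, -0.000443 with edgeR's own filter, -0.0191 with no filter, -0.00123 with only the groups compared and -0.0259 without both outlying libraries, and ran from -0.0141 to 0.0234 with single libraries left out. With H2O2 it turned to -0.0109 without the outlying pair and ran from -0.00638 to 0.0689, while DUSP6 ran from -0.20 to 0.0626 and DUSP16 from -0.00769 to 0.0700. DUSP10 with H2O2 lost its call with no filter, with only the groups compared and without any of 7 single libraries (vector DMSO 2, WT DMSO 3, DR-RD DMSO 2, vector H2O2 1, vector H2O2 3, DR-RD H2O2 2 and SxxS H2O2 1; adjusted p up to 0.0718, edgeR). The replicate number as a block changed no count of members called. With this block, DUSP8 with arsenite was at 3.80, and 18 of 36 libraries correlated best with their own number. The cause of these differences was not tested. Counts of 10 to 69 per library limit DUSP6.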

Other observations

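Most of the small atypical dual-specificity phosphatases lack the MAP kinase-binding domain. Of 11 tested, 4 were higher and 5 lower with arsenite, against 37.4% and 31.5% of all genes, with a median log2 fold change of -0.00713. DUSP18 (-1.24), DUSP19 (-1.05), STYX (-0.95) and DUSP3 (-0.16) were lower, and DUSP12 (0.58), STYXL1 (0.47), DUSP28 (0.39) and DUSP15 (0.31) were higher.

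Of 8 genes whose proteins bind AU-rich elements in mRNA, as found in many short-lived transcripts, 4 were higher and 3 lower with arsenite. Of all genes 37.4% were higher and 31.5% lower. ZFP36, which encodes tristetraprolin, a factor that promotes the decay of such mRNAs, rose from a mean of 1.88 to 9.19 CPM (log2 fold change 2.28 ± 0.07, adjusted p = 4.31e-22), and with H2O2 to 2.59 CPM (0.46 ± 0.07, adjusted p = 3.81e-05). Its relative ZFP36L2 was lower with arsenite (-0.36), and the other members of the list changed by less than ZFP36L2.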
